A study of Mus musculus with 6 samples.

Results

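The 10 genes described here encode the enzymes that make serine and those that move its one-carbon units through folate: Phgdh, Psat1 and Psph of serine synthesis, Shmt1, Mthfd1 and Aldh1l1 of the cytosolic folate pathway, and Shmt2, Mthfd2, Mthfd1l and Aldh1l2 of the mitochondrial one. They were taken by symbol from 56847 gene IDs, and all 10 had a row and passed the filter on low counts, as did 14215 genes in all. Messenger RNA of mouse liver was sequenced in 3 libraries of the CDAHFD group and 3 of the normal diet group. CDAHFD is a high-fat diet with defined amino acids and no choline that brings about steatohepatitis. The series title concerns ALDH18A1, a proline synthesis enzyme, in steatohepatitis. The sources used here give no strain, sex, age, genotype or time on diet for either group. Nor do the labels tie a library to its own animal, and the p-values therefore cover the spread between libraries, which may be technical.

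Serine is made from the glycolytic intermediate 3-phosphoglycerate by the phosphoglycerate dehydrogenase Phgdh, the aminotransferase Psat1, which uses glutamate, and the phosphatase Psph. The serine hydroxymethyltransferases Shmt1 and Shmt2 then split serine into glycine and a one-carbon unit that is carried on folate. Mitochondria oxidise that unit with Mthfd2 and release it as formate with Mthfd1l, and the cytosol takes it up with Mthfd1 for purine, thymidylate and methyl group synthesis. Aldh1l1 in the cytosol and Aldh1l2 in mitochondria remove the unit as carbon dioxide. In liver the choline that is absent from this diet is itself a source of one-carbon units, through betaine, dimethylglycine and sarcosine.

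Total counts ran from 21986215 to 25628531 per library and from 20986 to 21761 genes were counted at least once on CDAHFD, against 19085 to 19454 on normal diet. Alb, the defining hepatocyte gene, took 7.72% to 9.69% of the counts. Each change is given on the log2 scale, CDAHFD over normal diet, ± standard error from edgeR's quasi-likelihood test with TMM scaling (which aligns libraries on genes that vary little), with Benjamini-Hochberg adjustment over all tested genes, a threshold of 0.05 and n = 3 libraries per diet. CPM are counts per 1000000 of the TMM-scaled total, and TPM, also adjusted for gene length, are the authors' values and serve for levels between genes.

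CDAHFD livers held more RNA of the early serine synthesis enzymes and of most mitochondrial folate enzymes, and less of the cytosolic folate enzymes. Phgdh, Psat1, Mthfd2, Mthfd1l and Aldh1l2 rose, each at least 2-fold, and Shmt1, Mthfd1 and Aldh1l1 fell, while Psph and Shmt2 did not pass. Thus 5 of 10 enzymes were called higher, against a background of 28.5% of all tested genes, and 3 were called lower, against 23.5%. In either direction 8 of 10 were called, against 52.1%. At least 2-fold higher were 5 enzymes, against 18.4% of tested genes, and at least 2-fold lower was Aldh1l1, against 3.58%. The CPM of the diets did not overlap for 5 enzymes that were higher and 4 that were lower, against 32.2% and 28.4% of tested genes. That made 9 of 10 without overlap, against 60.6%. Phgdh (6, 0 and 6 counts on normal diet) and Aldh1l2 (1, 9 and 2) passed the filter, with its minimum count of 10, only through the CDAHFD libraries. Their place in these counts is therefore not independent of the filter.

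**Figure D1:**
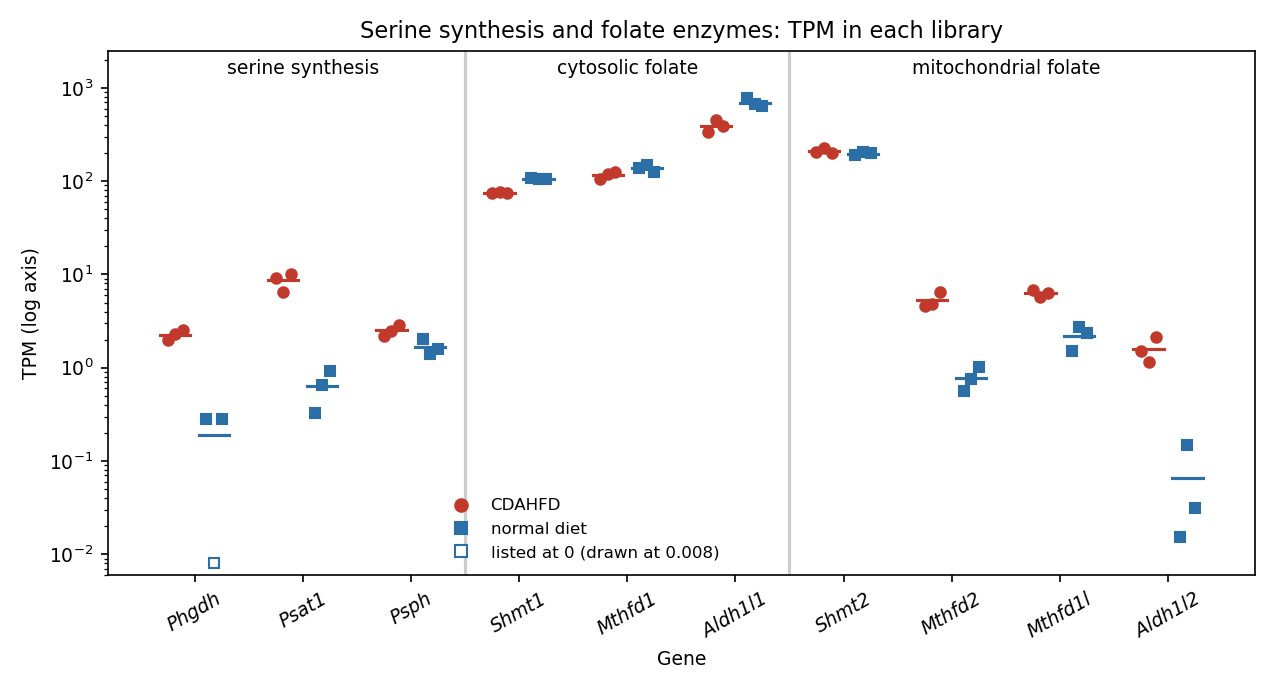
TPM (log axis) of the 10 enzyme genes in each library, with CDAHFD libraries as circles left of normal diet libraries as squares, and short lines at the means of 3. The 5 genes that rose reached at most 10.1 TPM in any library, and the 3 cytosolic folate genes and Shmt2 had at least 73.9 TPM in every library.

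Psat1 was the enzyme gene with the smallest adjusted p. It had 309, 258 and 343 counts in CDAHFD libraries, against 12, 22 and 33 in normal diet libraries. The lowest CDAHFD library was thus far above the highest normal diet library. Its level was 11.7 ± 2.19 CPM on CDAHFD and 1.11 ± 0.531 CPM on normal diet (SD, n = 3 each), a log2 change of 3.40 ± 0.29 (edgeR adjusted p = 2.93e-06).

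Phgdh, which commits 3-phosphoglycerate to serine, had 39, 53 and 50 counts on CDAHFD, against 6, 0 and 6 on normal diet. The groups did not overlap, and the normal diet libraries were near the limit of detection. The change was 3.16 ± 0.51 (edgeR adjusted p = 0.000386), and 2.58 without normal diet replicate 2, the library with no read. The pseudogene Phgdh-ps1 had 0 counts in all 6 libraries.

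Psph, which releases free serine, had 3.04, 3.54 and 3.90 CPM on CDAHFD, against 3.78, 2.40 and 2.90 CPM on normal diet. These ranges overlapped, and the change of 0.21 ± 0.22 did not pass (edgeR adjusted p = 0.457). With libraries scaled to the hepatocyte markers its change was 0.62 (adjusted p = 0.0339). In the GENCODE M21 annotation 452 of its 4329 exonic bases lie in exons of Cct6a on the opposite strand, a gene with 1930 to 2227 counts on CDAHFD and 2438 to 2735 on normal diet. The strand setting of the counting is not given, so reads in that stretch cannot be told apart.

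Of the TPM of these 3 genes, which summed to 13.5, 11.3 and 15.5 on CDAHFD and to 2.66, 2.07 and 2.78 on normal diet, the make-up differed between the diets. Psph held the highest mean level on normal diet (1.69 TPM, with 0.63 for Psat1 and 0.188 for Phgdh). On CDAHFD Psat1 did, at 8.62 TPM, with 2.52 for Psph and 2.27 for Phgdh, whose ranges overlapped.

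In mitochondria, Mthfd2, the methylene-tetrahydrofolate dehydrogenase and cyclohydrolase, had 126, 157 and 181 counts on CDAHFD, against 17, 21 and 30 on normal diet. Every CDAHFD library was above every normal diet library. It rose by 2.40 ± 0.25 on the log2 scale (edgeR adjusted p = 1.51e-05), with 5.92 ± 1.01 CPM on CDAHFD and 1.12 ± 0.342 CPM on normal diet (SD, n = 3 each). Its close relative Mthfd2l, a gene chosen here after its values were seen, had 1.77 ± 0.306 CPM on CDAHFD and 1.53 ± 0.282 CPM on normal diet (SD, n = 3 each) and did not pass (0.21 ± 0.26, edgeR adjusted p = 0.531).

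Mthfd1l, the synthetase that frees formate, had 236, 236 and 226 counts on CDAHFD, against 58, 97 and 88 on normal diet. The CDAHFD counts lay close together and above all normal diet counts. The change was 1.16 ± 0.20 (edgeR adjusted p = 0.00049), the smallest of the 5 rises.

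Aldh1l2, the mitochondrial formyl-tetrahydrofolate dehydrogenase, had 90, 81 and 127 counts on CDAHFD, against 1, 9 and 2 on normal diet. The groups did not overlap, and normal diet replicate 2 held most of the reads of its group. The change was 4.24 ± 0.48 (edgeR adjusted p = 2.65e-05), the largest of the 10 enzymes, but its size rests on few reads. It was 3.78 to 5.58 with 1 library left out, highest without normal diet replicate 2. Of its 7503 exonic bases 1056 lie opposite exons of D10Wsu102e in the same annotation. That gene had 449 to 587 counts on CDAHFD and 346 to 408 on normal diet.

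Shmt2, the mitochondrial serine hydroxymethyltransferase, did not move with the other mitochondrial enzymes. It had 201, 235 and 197 CPM on CDAHFD, against 251, 247 and 264 CPM on normal diet. The CDAHFD libraries were all lower, but the change of -0.27 ± 0.11 did not pass (edgeR adjusted p = 0.0602). It passed as lower without CDAHFD replicate 2 (-0.39, adjusted p = 0.0201), with RLE scaling (-0.28, adjusted p = 0.0485), with DESeq2 (-0.28, adjusted p = 0.0338) and with limma-voom (-0.27, adjusted p = 0.0484), and it was above 0 with total counts (0.06) and with hepatocyte marker scaling (0.13). In TPM it had 204, 229 and 203 on CDAHFD and 190, 203 and 201 on normal diet.

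The cytosolic enzymes were abundant and fell. Aldh1l1, the cytosolic formyl-tetrahydrofolate dehydrogenase and the most abundant of the 10 transcripts, had 485, 682 and 545 CPM on CDAHFD, against 1491, 1186 and 1227 CPM on normal diet. The highest CDAHFD library was well below the lowest normal diet library. It fell by 1.19 on the log2 scale (SE 0.15, edgeR adjusted p = 5.99e-05).

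Shmt1, the cytosolic serine hydroxymethyltransferase, had 91.3, 98.7 and 89.6 CPM on CDAHFD, against 176, 160 and 174 CPM on normal diet. The groups did not overlap, and it fell by 0.87 (SE 0.10, edgeR adjusted p = 3.49e-05). Mthfd1, the trifunctional cytosolic enzyme, had 148, 175 and 173 CPM on CDAHFD, against 261, 262 and 239 CPM on normal diet. It fell by 0.62 (SE 0.11, edgeR adjusted p = 0.000689). Its call was lost with hepatocyte marker scaling (-0.21, adjusted p = 0.207) and on the log2(TPM + 1) scale (-0.25, adjusted p = 0.0918), with the direction kept, whereas Shmt1 and Aldh1l1 were called lower under every scaling tried. In bulk liver, fewer cells of a type and less RNA per cell cannot be told apart.

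**Figure D2:**
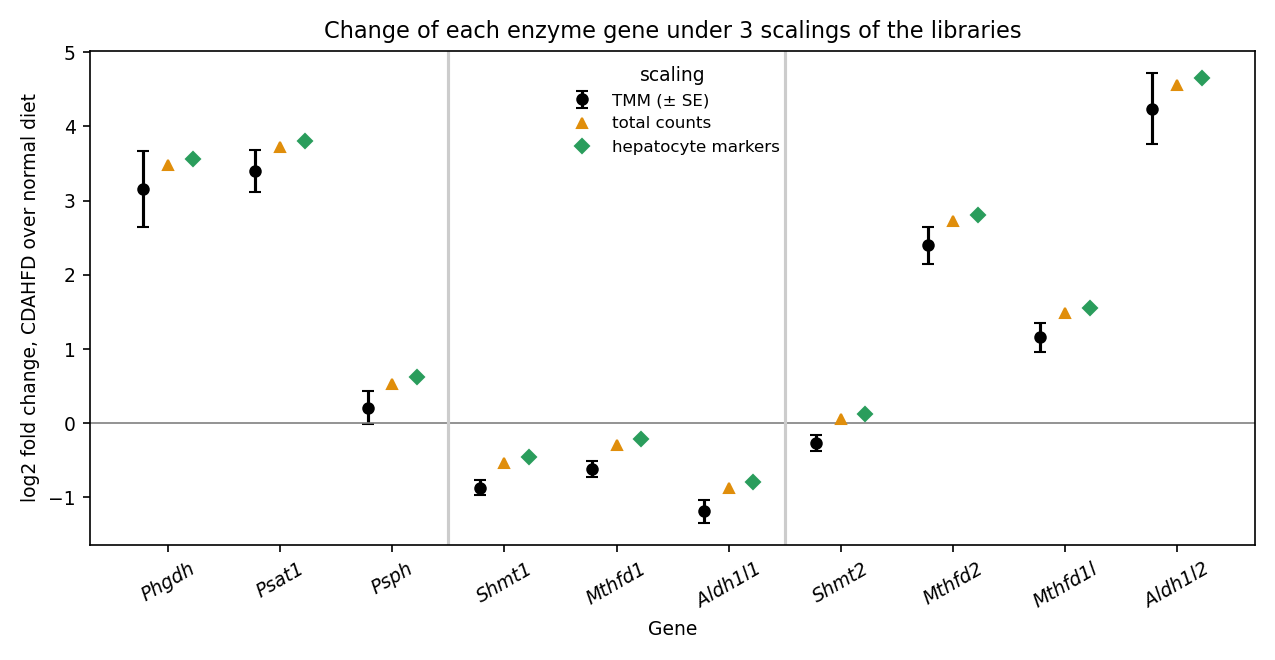
Log2 fold change of CDAHFD over normal diet for the 10 enzyme genes with TMM (circles, bars are ± SE), total counts (triangles) and hepatocyte marker scaling (diamonds). Scaling shifted all genes alike, and of the 10 only Shmt2 crossed 0, at -0.27, 0.06 and 0.13.

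The scaling of the libraries set the balance of calls over all genes. Of the genes called with TMM 54.8% were higher (4057 higher, 3347 lower), against 84.5% with total counts and 89.1% with libraries scaled to 18 hepatocyte marker genes. The median change of all tested genes was 0.01, 0.34 and 0.41 with these scalings, and the median of the 10 enzymes was 0.68, 1.01 and 1.09. Of the 10 enzymes 5 were called higher with total counts, against a background of 44% of tested genes, and 3 lower, against 8.07%. With the hepatocyte markers 6 were higher, against 47.1%, and 2 lower, against 5.77%. The shares of enzymes called higher thus stood closer to the background under these scalings than with TMM, and the shares called lower stood further above it.

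Ratios of 2 genes within a library do not depend on that scaling. The ratio of Shmt2 to Shmt1 in TPM was 2.75, 2.98 and 2.74 in CDAHFD libraries, against 1.78, 1.92 and 1.90 in normal diet libraries. The ratio was thus higher in 3 of 3 CDAHFD libraries than in any normal diet library, while the change of Shmt2 itself did not pass. On the log2 scale of counts (0.5 added) the difference was 0.60. It was 1.81 for Mthfd1l over Mthfd1, 3.02 for Mthfd2 over Mthfd1 and 5.73 for Aldh1l2 over Aldh1l1, the last being 5.06 without normal diet replicate 1 and 6.55 without normal diet replicate 2. In these 4 ratios every CDAHFD library was above every normal diet library. The exact 2-sided permutation p was 0.1 for each, also after adjustment over the 4 ratios, which is the smallest that 3 against 3 libraries allow, so no ratio could pass 0.05. For the 3 ratios other than that of Shmt2, the upper gene was called higher and the lower gene called lower, so their direction adds nothing to those calls.

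**Figure D3:**
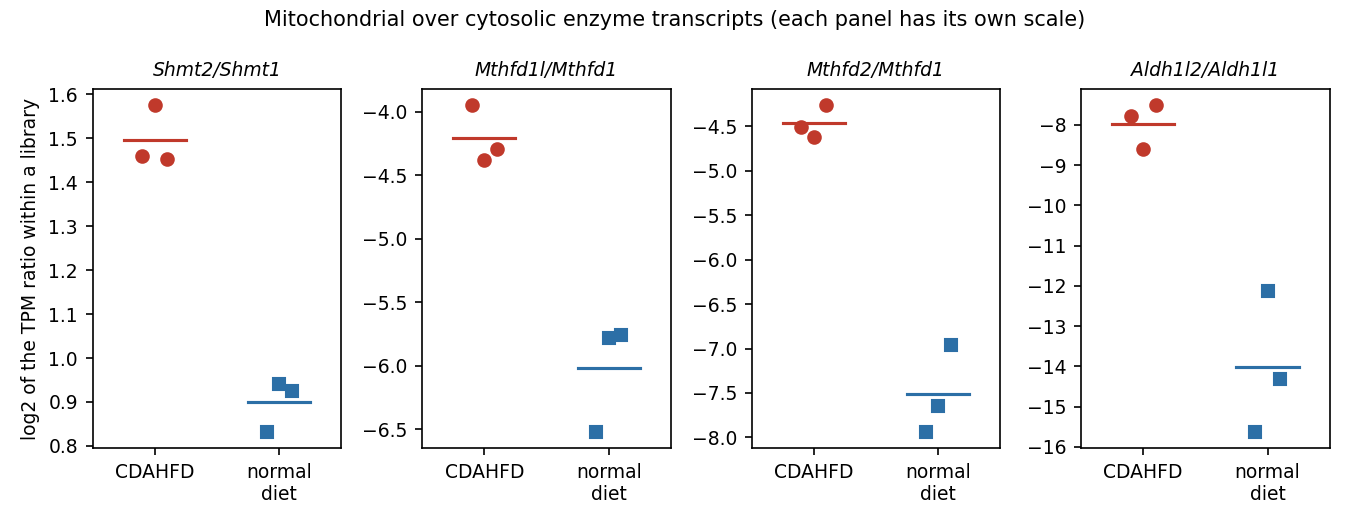
Log2 of the TPM ratio of a mitochondrial to a cytosolic enzyme gene within each library, CDAHFD (circles) left of normal diet (squares), with lines at the means of 3 and an own scale per panel. No normal diet library reached the lowest CDAHFD library in any of the 4 panels.

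The larger ratios did not mean that mitochondrial transcripts became the more abundant. Aldh1l2 remained far below Aldh1l1, with TPM ratios of 0.00453, 0.00256 and 0.00547 on CDAHFD. Mthfd2 reached 0.0440, 0.0408 and 0.0521 of Mthfd1 in TPM on CDAHFD, against 0.00408, 0.00500 and 0.00801 on normal diet. Summed over the 7 folate enzymes, mitochondrial transcripts held 27.9% ± 1.45 of the TPM on CDAHFD and 17.6% ± 1.63 on normal diet (SD, n = 3 each). The cytosolic sum was 584 ± 67.8 TPM on CDAHFD and 941 ± 75.2 TPM on normal diet, and the mitochondrial sum was 225 ± 13.6 TPM on CDAHFD and 201 ± 7.76 TPM on normal diet. Without Shmt2 the mitochondrial sum was 13.2 ± 1.61 TPM on CDAHFD and 3.04 ± 0.834 TPM on normal diet. TPM are not TMM-scaled, and the direction of the full mitochondrial sum depends on the scaling. Shmt2, its main part, averaged 212 TPM on CDAHFD and 198 TPM on normal diet, but 211 CPM on CDAHFD and 254 CPM on normal diet.

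The order of levels was the same at the top on both diets, with Aldh1l1 above Shmt2, Mthfd1 and Shmt1, and no overlap between neighbours. Below them came Psat1 (8.62 TPM), Mthfd1l (6.30) and Mthfd2 (5.31) on CDAHFD, with overlaps between neighbours, then Psph, Phgdh and Aldh1l2, also overlapping. On normal diet the order was Mthfd1l (2.20 TPM), Psph (1.69), Mthfd2 (0.778), Psat1 (0.63), Phgdh (0.188) and Aldh1l2 (0.0657). There Mthfd1l overlapped with Psph, Mthfd2 with Psat1, and Phgdh with Aldh1l2.

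Promoter sequence was at hand for 9 of the 10 genes, in RefSeq windows on GRCm38.p6, an earlier build than the GRCm39 named in the submitters' processing notes. The last 150 bases before the annotated start are shown for 3 genes that rose together and for Aldh1l1, the most abundant gene that fell, with each CCAAT or its reverse complement ATTGG in capitals. Phgdh is at chr3:98339970-98340119 (minus strand), Psat1, by the first of its 2 windows, at chr19:15925060-15925209 (minus), Mthfd2 at chr6:83317605-83317754 (minus) and Aldh1l1 at chr6:90550643-90550792 (plus).
Phgdh: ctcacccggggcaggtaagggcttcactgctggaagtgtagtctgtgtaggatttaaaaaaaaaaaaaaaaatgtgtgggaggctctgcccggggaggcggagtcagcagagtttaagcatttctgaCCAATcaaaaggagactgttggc
Psat1: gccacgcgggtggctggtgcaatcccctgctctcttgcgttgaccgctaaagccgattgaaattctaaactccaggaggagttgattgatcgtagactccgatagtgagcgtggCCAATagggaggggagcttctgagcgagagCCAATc
Mthfd2: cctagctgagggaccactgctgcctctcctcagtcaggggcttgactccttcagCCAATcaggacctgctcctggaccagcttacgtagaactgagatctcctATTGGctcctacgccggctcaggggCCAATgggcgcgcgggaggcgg
Aldh1l1: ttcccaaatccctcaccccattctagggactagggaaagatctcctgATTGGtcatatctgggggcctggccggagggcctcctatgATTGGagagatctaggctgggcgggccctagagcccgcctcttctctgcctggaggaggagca
In the 250 bases before the start, CCAAT on either strand was found for 7 of these 9 genes, which had 10 windows. Over all genes it was in 33.8% of 32851 windows. The motifs were chosen after promoters and values were seen, so a difference between these shares is not a test. Those 7 genes held 3 that rose and 3 that fell, so the presence of CCAAT did not follow the direction of change. Mthfd1l, which rose, and Shmt2 had no CCAAT there. The core of the ATF4 composite element, TGATGNAA, was in no window of the 9 genes and in 3.45% of all windows, and the E-box CACGTG was in none of the 9 and in 6.02% of all. No match means only that these letters were not in this window.

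The list named serine and glycine use, which also holds enzymes that form glycine, fell as the cytosolic folate enzymes did. All 12 tested genes of that list were called lower, against 23.5% of all tested genes. The list median was -0.73 beside 0.01 for all tested genes. Agxt, which moves the amino group of alanine to glyoxylate to give glycine, fell by 1.08 (SE 0.14), and Cbs, which joins serine to homocysteine, fell by 1.03 (SE 0.13). Gcsh, the lipoyl carrier of the glycine cleavage system, fell by 0.82 (SE 0.13), and Gcat, which makes glycine from a threonine product, by 0.84 (SE 0.23). Fewer were called lower under total counts (6 of 12, against 8.07% of all tested genes) and hepatocyte marker scaling (3 of 12, against 5.77%). Under either, 0 were called higher.

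The list named one-carbon units from choline and sarcosine, which also holds the sarcosine-forming Gnmt, fell too. Of its genes 8 of 8 were called lower, against 23.5% of all tested genes, with a median of -0.81. It was 5 of 8 under total counts, against 8.07% of all tested genes, and 5 of 8 under hepatocyte marker scaling, against 5.77%. Gnmt, which methylates glycine to sarcosine, had 527 ± 106 CPM on CDAHFD and 2104 ± 277 CPM on normal diet (SD, n = 3 each). It fell by 2.00 (SE 0.16, edgeR adjusted p = 2.23e-06). Pipox, which oxidises sarcosine and pipecolate, fell by 1.75 (SE 0.13), and Aldh7a1, an aldehyde dehydrogenase that can form betaine, by 0.98 (SE 0.12). Bhmt, which passes a methyl group of betaine to homocysteine, fell by 0.88 (SE 0.25, edgeR adjusted p = 0.0128), but its groups overlapped and it did not pass without CDAHFD replicate 3 (adjusted p = 0.0517).

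Of the other folate genes 3 of 16 rose and 5 fell, against 28.5% and 23.5% of all tested genes, and 8 did not pass (median -0.08). Under total counts 5 were higher and 2 lower, against 44% and 8.07%. It was also 5 and 2 under hepatocyte marker scaling, against 47.1% and 5.77%. Mthfsd, a gene with a domain related to methenyltetrahydrofolate synthetase, rose by 0.67 ± 0.13 (edgeR adjusted p = 0.00162). Slc25a32, the mitochondrial folate carrier, fell by 1.14 (SE 0.18), opposite to Mthfd2, Mthfd1l and Aldh1l2 in the same compartment. Ftcd, which feeds one-carbon units from histidine, fell by 0.81 (SE 0.12).

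Purine synthesis, which uses formyl-folate, had 2 of 6 genes lower and 0 higher, against 23.5% and 28.5% of all tested genes. Paics was lower by 0.89 (SE 0.12) and Ppat by 0.68 (SE 0.11), and the list median was -0.03. With total counts 3 were higher and 2 lower, against 44% and 8.07%. With the hepatocyte markers it was 3 and 1, against 47.1% and 5.77%. Lower glycolysis runs through 3-phosphoglycerate, and its pyruvate kinases act after that intermediate. Of these Pkm, the type of non-hepatocyte tissues, rose by 2.82 ± 0.12, and Pklr, the liver type, fell by 1.26 (SE 0.18). Pgk1 fell by 0.52 (SE 0.12). Of the 6 genes 1 was thus higher and 2 lower, against 28.5% and 23.5% of all tested genes, and the other 3 did not pass. Pgk1 was not called with total counts (edgeR adjusted p = 0.182) or the hepatocyte markers (edgeR adjusted p = 0.537). Each of these scalings left 1 gene of the list higher and 1 lower.

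Among 11 tested transporters of serine, glycine and related amino acids 4 rose and 4 fell, against 28.5% and 23.5% of all tested genes (median -0.05). With total counts 5 were higher and 3 lower, against 44% and 8.07%. With the hepatocyte markers it was 5 and 2, against 47.1% and 5.77%. The 4 that rose with TMM were low in normal diet liver. The mitochondrial sideroflexin Sfxn3 had 10.3 ± 1.27 CPM on CDAHFD and 2.03 ± 0.367 CPM on normal diet (SD, n = 3 each), and rose by 2.34 ± 0.19. Slc38a1, a neutral amino acid transporter, rose by 2.25 ± 0.20, and Slc1a5 and Slc1a4, exchangers of neutral amino acids, rose by 2.25 ± 0.22 and 2.17 ± 0.23. Those that fell included the abundant Slc38a3, Slc38a4 and Slc38a2, at -0.68, -0.97 and -1.32, and Sfxn1, a mitochondrial serine carrier, at -0.50, the 4 being named after their values were seen.

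Several genes of serine synthesis and mitochondrial folate metabolism are known targets of the stress factor ATF4. Of Atf4 and 9 other genes known as its targets or partners, 7 rose, against 28.5% of all tested genes. Of the rest 0 fell and 3 did not pass, with a list median of 0.84. With total counts 7 of the 10 were higher, against 44% of all tested genes. With the hepatocyte markers it was 8 of 10, against 47.1%. With 1 library left out 5 to 7 were higher and 0 to 1 lower. Beside Atf4, those that did not pass were Ddit3 (0.21 ± 0.23) and Chac1 (-0.24 ± 0.29), named after their values were seen. Atf3 rose by 5.38 ± 0.26, Nupr1 by 4.61 ± 0.27 and the asparagine synthetase Asns by 2.27 ± 0.32, while the hormone gene Fgf21 rose by 1.41 ± 0.37 with overlapping groups. Atf3 (14, 12 and 8 counts on normal diet) and Nupr1 (18, 9 and 17) passed the filter only through the CDAHFD libraries. The calls of Atf3 and Nupr1 are therefore not independent of the filter. With 1 library left out the change of Asns was 1.94 to 2.90, highest without normal diet replicate 1. That of Fgf21 was 1.15 to 2.03, highest without normal diet replicate 3, with edgeR adjusted p up to 0.0357. Atf4 itself, chosen after its values were seen, had 70.7 ± 6.12 CPM on CDAHFD and 88.0 ± 12.5 CPM on normal diet (SD, n = 3 each) and did not pass (-0.31 ± 0.12, edgeR adjusted p = 0.0519). Its value was 0.01 under total counts and 0.09 under hepatocyte marker scaling, and it passed as lower without CDAHFD replicate 1 (adjusted p = 0.0376) and without normal diet replicate 2 (adjusted p = 0.00889), among other settings. Aldh18a1, the gene of the series title, had 153, 167 and 211 counts on CDAHFD and 13, 23 and 20 on normal diet, a size of change (2.88 ± 0.25) between those of Mthfd2 and Phgdh.

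**Figure D4:**
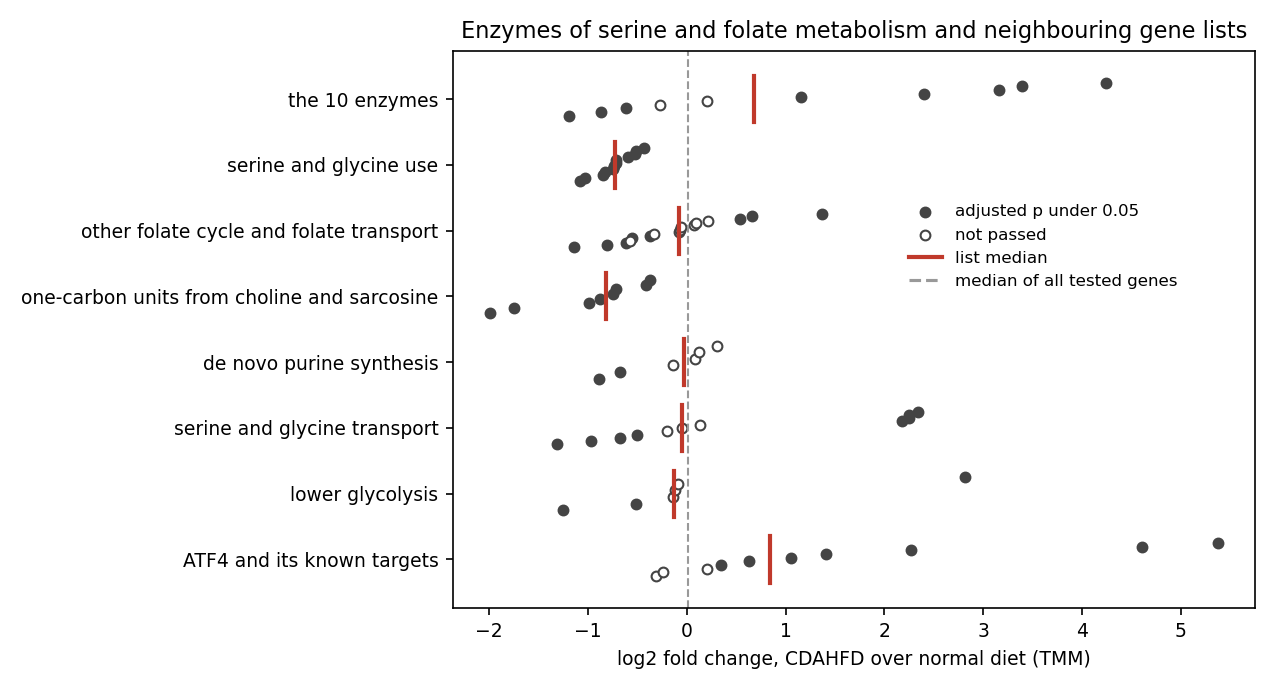
Log2 fold change of CDAHFD over normal diet (TMM) for the 10 enzymes and for 7 neighbouring lists, 1 point per tested gene, filled where the adjusted p was under 0.05, with list medians in red and the median of all tested genes dashed. The serine and glycine use list and the choline and sarcosine list lie wholly below 0, and the 10 enzymes and the transporters spread to both sides.

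Markers of other cell types moved with the diets. The TMM calls below stand beside 28.5% of all tested genes called higher and 23.5% called lower. The summed level of 18 hepatocyte markers was 116000 to 131000 CPM on CDAHFD and 157000 to 175000 CPM on normal diet, with 14 called lower and 1 higher, alongside Shmt1, Mthfd1 and Aldh1l1. With total counts 6 of the 18 were lower and 2 higher, against 8.07% and 44% of all tested genes. With libraries scaled to these markers 4 were lower and 2 higher. That scaling holds their own sum equal between libraries, so their calls under it are no test of them. Alb, at a mean of 73248 CPM on CDAHFD, was the largest part of the sum. The 10 macrophage markers summed to 1660 to 1830 CPM on CDAHFD, against 489 to 677 CPM on normal diet (9 higher), and the 9 stellate cell and fibroblast markers to 1210 to 1450 CPM on CDAHFD, against 277 to 331 CPM on normal diet (9 higher). The 6 cholangiocyte markers summed to 157 to 202 CPM on CDAHFD, against 26.9 to 33.5 CPM on normal diet (all 5 tested higher). Of 10 markers of cycling cells 8 were higher, with sums of 87.7 to 101 CPM on CDAHFD and 40.6 to 45.8 CPM on normal diet.

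Most markers of other immune cells were called higher too, against 28.5% of all tested genes, at smaller sums. The neutrophil markers (5 of 5 tested higher) summed to 22.5 to 28.3 CPM on CDAHFD and 2.35 to 4.20 CPM on normal diet. The T and NK cell markers (5 of 7 higher) summed to 14.5 to 22.6 CPM on CDAHFD and 4.03 to 7.30 CPM on normal diet, and the B and plasma cell markers (3 of 5 tested higher) to 14.2 to 23.7 CPM on CDAHFD and 7.55 to 8.35 CPM on normal diet. Endothelial markers had 2 of 7 higher, near the 28.5% of all tested genes. Their sums were 317 to 362 CPM on CDAHFD and 290 to 320 CPM on normal diet. It was 5 of 7 higher under both total counts and hepatocyte marker scaling, against 44% and 47.1% of all tested genes. All 7 T and NK cell markers were higher under both as well. None of the markers found was at 0 in all libraries. On normal diet S100a8 had 3, 4 and 5 counts, S100a9 had 7, 4 and 5, and Cxcr2 had 2, 1 and 3. The T cell marker Cd8a had 4, 7 and 8. These markers, among others, passed the filter only through the CDAHFD libraries, so their calls are not independent of it. The part of these cells in the change of each enzyme was not tested.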

How the data were processed

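Liver RNA of 6 samples was sequenced, 1 library each. Per the labels' protocols, RNA was extracted with TRIzol and libraries were made with a stranded mRNA kit. STAR 2.7.11a and GRCm39 are named in the submitters' processing notes. The sources used here do not name the counter, annotation, strand setting or the lengths behind TPM. The authors deposited raw read counts per Ensembl gene and TPM, which sum to 1000000 in each library. Columns beginning with CD and ND were read as CDAHFD and normal diet with the replicate numbers of the titles.

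Symbols came from a gene name table, which held 51911 of 56847 IDs. In R 4.3.3, genes were kept with filterByExpr (minimum count 10), and edgeR 4.0.16 fitted diet over all 6 libraries. Alternatives were RLE, total counts, hepatocyte marker scaling, no filter, 1 CPM in 3 libraries, DESeq2 1.42.0, limma-voom and limma 3.58.1 on log2(TPM + 1) and log2(TPM + 0.1), for genes with at least 0.1 TPM in 3 libraries, each library left out, and a replicate block. The method was tested on simulated data. Pairs of libraries from 1 diet differed by far more than sampling noise (chi-square over its degrees of freedom 17.5 to 39.7).

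The enzymes and gene lists were chosen with earlier results of these data known, and the promoter motifs after promoters and values were seen. Named genes are the 10 enzymes, Aldh18a1 and, per list, up to 4 called genes, taken by size of change among those averaging 1 CPM or more. Where fewer than 2 passed, the 2 most abundant were to be named. A gene that this rule names is not reported here. The hepatocyte list had 19 symbols, of which 18 matched.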

Additional observations from a re-analysis of the deposited data

How the results depend on the processing

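The 5 enzymes called higher kept that call under every alternative run, and Shmt1 and Aldh1l1 kept theirs as lower. Leaving out 1 library gave 5 enzymes higher throughout and 3 to 4 lower, and 3530 to 4104 genes higher and 2871 to 3416 lower over all tested. Calls over all genes moved by over 1.5 times in 4 settings, of which those on TPM also changed the test, the unit and the filter. Higher and lower calls were 6258 and 1147 (total counts), 6701 and 820 (hepatocyte markers), 6702 and 870 on log2(TPM + 1), and 6735 and 872 on log2(TPM + 0.1). Shmt2 turned to 0.06, 0.13, 0.10 and 0.10 in these 4 settings and Atf4 to 0.01, 0.09, 0.06 and 0.06. The cause was not tested. The ratio difference of Aldh1l2 over Aldh1l1 was 4.45 with 5 added to each count and 4.24 on TPM + 0.1, since added values weigh on low counts. Leaving out 1 library gave 5.06 to 6.55 for it, 0.56 to 0.62 for Shmt2 over Shmt1, 1.56 to 1.94 for Mthfd1l over Mthfd1 and 2.82 to 3.30 for Mthfd2 over Mthfd1. Libraries of equal replicate number had correlations of deviations of -0.0471, 0.0688 and 0.118. CDAHFD replicates 2 and 3 correlated best with their own number, and CDAHFD replicate 1 did not. Within a diet the deviations of 3 libraries sum to 0, so these values cannot settle whether libraries were paired. The replicate block gave 4046 genes higher and 3311 lower, with 5 and 3 enzymes. Depth limits Phgdh and Aldh1l2 most, whose normal diet libraries held 0 to 9 reads.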
